A study of Mus musculus with 4 samples.

Results

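The 9 genes described here, Ptprc, Lcp1, Stap1, Lcp2, Syk, Btk, Vav1, Plcg2 and Fgr, code for kinases, adaptors and other signalling proteins of blood cells. They were taken from a list of symbols, and all 9 of 9 were measured among 19938 genes with a single symbol. Each was read by 1 probe set, a group of probes for one transcript region, so the choice of the probe set with the highest mean changed none of them. The study hybridised 4 Affymetrix whole-transcript arrays, each with RNA of a different culture of C57BL/6 mouse cells. One culture was of embryonic stem (ES) cells, another of osteoblasts that trypsin and collagenase had freed from newborn calvariae, the roof of the skull. The remaining pair were bone marrow mesenchymal stem cells (MSC), one kept without and one with bFGF (FGF2, basic fibroblast growth factor) at 1 ng/ml. MSC were the cells of flushed thigh and shin bone marrow that adhered to plastic. The protocols record no step that removes adherent blood cells, and no genotype other than the strain. The series was made to compare the effect of bFGF on marrow MSC. The labels give neither the age of the marrow donors nor the line of the ES cells.

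In myeloid cells and lymphocytes, receptors that carry the tyrosine motif called ITAM are phosphorylated by Src family kinases such as Fgr, and the phosphatase CD45, the product of Ptprc, sets the activity of those kinases. Syk docks on the phosphorylated motif and phosphorylates scaffold adaptors such as SLP-76, the product of Lcp2. The scaffold brings together the exchange factor Vav1, which acts on small GTPases and the actin cytoskeleton, the Tec family kinase Btk and phospholipase C gamma 2 (Plcg2), which makes the second messengers that release calcium. Stap1 is an adaptor with SH2 and PH domains, and Lcp1 codes for L-plastin, which bundles actin filaments in leukocytes. In bone and marrow cultures these genes are known mainly as genes of haematopoietic cells, including macrophages and osteoclasts, more than of the mesenchymal lineage.

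All values are log2 levels, on which a difference of 1 is 2-fold. A floor was set in each array at the median of its probe sets with a single symbol, at 6.46 in ES cells, 6.46 in osteoblasts, 6.29 in MSC without bFGF and 6.32 in MSC with bFGF. In each pair of arrays, genes past 2-fold were counted as higher or lower, provided that the larger of the 2 levels exceeded the floor of its array. With 1 array per group there was no replicate check and no test, so no SD or p-value is given. A technical yardstick, here called the receptor range, was the central 95% of the differences of 1178 genes for odour and pheromone receptors, which cells outside sensory tissue mostly do not express. The number of arrays limits the precision.

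The osteoblast array was the one in which all 9 genes lay above the floor, and 8 of 9 did in MSC with bFGF. In MSC without bFGF 1 of 9 did, Lcp1, and in ES cells 2 of 9 did, Lcp1 and Plcg2. The median level over the 9 genes was 8.86 in osteoblasts, 8.33 in MSC with bFGF, 5.78 in MSC without bFGF and 6.02 in ES cells. Every gene was at its highest in osteoblasts except Stap1, which was highest in MSC with bFGF.

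**Figure D1:**
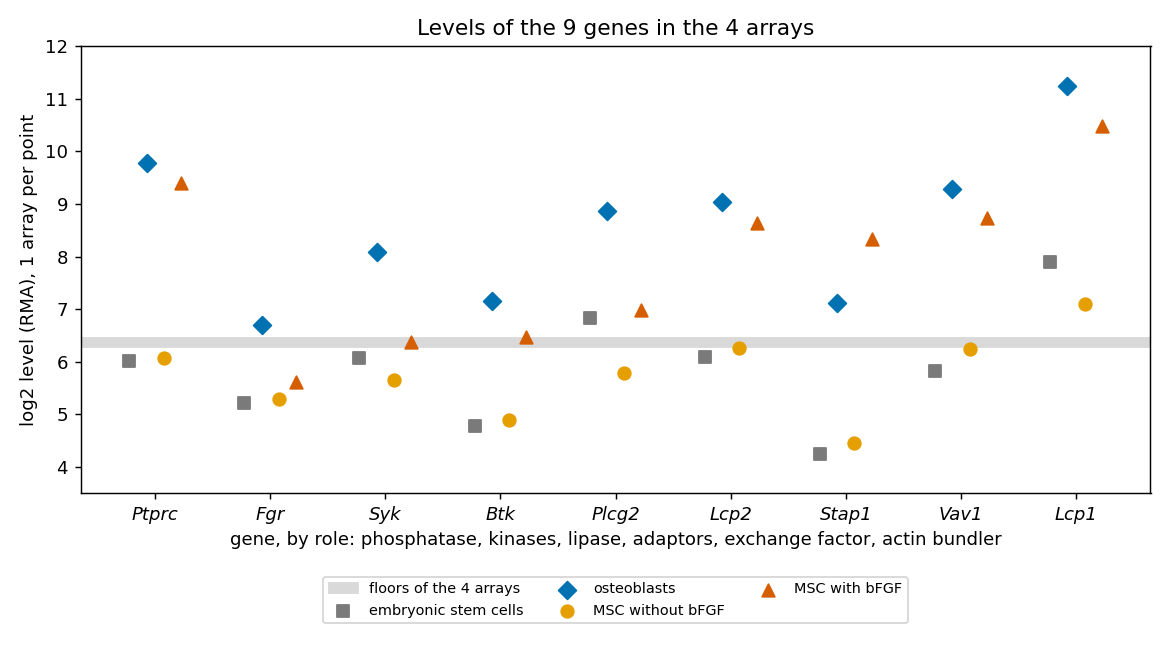
Log2 level (vertical axis) of each of the 9 genes in the 4 arrays, 1 point per array, with the range of the array floors as a grey band. Osteoblasts (diamonds) and MSC with bFGF (triangles) lie above the other arrays for each gene, though for Syk and Fgr the triangle lies near the circle of MSC without bFGF.

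MSC with bFGF were compared with MSC without it, the comparison the series was made for. With bFGF 7 of the 9 genes were higher at 2-fold and 0 lower, with a median difference of 2.36, while over all 10483 genes above the floor 4.09% were higher and 0.467% lower and the median over all 19938 genes was -0.06. All but Lcp1 of these 7 genes started from below the floor in MSC without bFGF, so part of each of their folds lies under the floor. With levels under the floor set to the floor, an alternative chosen after seeing the data, 5 of the 9 genes were past 2-fold, and Btk and Plcg2 were higher by 0.19 and 0.69. In the same pair 10 of 12 macrophage markers were higher, with a median of 2.66. These genes were listed with earlier results of these arrays known, and their count is a description. In RNA of a whole culture, more cells of a type and more RNA per cell cannot be told apart.

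Of the phosphatase and kinases at the top of the pathway, Ptprc differed most. Ptprc (chromosome 1, 138062859 to 138175756, all gene positions in GRCm38.p6) stood at 6.02 in ES cells, 9.77 in osteoblasts, 6.08 in MSC without bFGF and 9.40 in MSC with bFGF. Its arrays thus fell into a low pair and a high pair, and MSC with bFGF exceeded MSC without by 3.31, or 9.95-fold. Fgr, a Src family kinase of myeloid cells (chromosome 4, 132974095 to 133001893), stood at 5.22, 6.69, 5.30 and 5.61 in the same order. Only the osteoblast level of Fgr lay above its floor, and the difference of 0.31 between the MSC arrays lay inside the receptor range of -0.98 to 0.67. With a loess curve removed it was 0.85, and the receptor range was then -0.39 to 1.27. The curve was fitted only to genes above the floor, whereas receptor genes are mostly not expressed. Receptor ranges with a loess curve removed are therefore no measure of technical spread.

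Syk, the ITAM-binding kinase (chromosome 13, 52582610 to 52648792), had levels of 6.07 in ES cells, 8.08 in osteoblasts, 5.65 in MSC without bFGF and 6.38 in MSC with bFGF. The level with bFGF was close to the floor of 6.32, and the difference of 0.73 was under 2-fold and just outside the receptor range. With a loess curve removed the difference was 0.98, still under 2-fold, beside a receptor range of -0.39 to 1.27 for that setting. Btk, the Tec family kinase that acts upstream of phospholipase C (chromosome X, 134542334 to 134583628), stood at 4.79, 7.16, 4.89 and 6.48 in the same order. Its levels in ES cells and in MSC without bFGF were both low, and MSC with bFGF were higher than MSC without by 1.60, or 3.03-fold, with a level of 6.48 near the floor.

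Plcg2, the phospholipase (chromosome 8, 117498275 to 117635142), stood at 6.83 in ES cells, 8.86 in osteoblasts, 5.78 in MSC without bFGF and 6.99 in MSC with bFGF. It was 1.21 higher with bFGF than without, but its level with bFGF was only 0.16 above that in ES cells. The scaffold adaptor Lcp2 (chromosome 11, 34046928 to 34092281) had levels of 6.10, 9.03, 6.27 and 8.63 in the same order. Like Ptprc it was low in ES cells and MSC without bFGF and high in the other arrays, with 2.36 between the MSC arrays, or 5.14-fold.

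Stap1 (chromosome 5, 86071584 to 86106125) was low in ES cells and MSC without bFGF, far under the floor, and high in MSC with bFGF. It stood at 4.25 in ES cells, 7.12 in osteoblasts, 4.46 in MSC without bFGF and 8.33 in MSC with bFGF, a difference of 3.87 between the MSC arrays. Measured from the floor instead of from 4.46, the difference was 2.04, or 4.10-fold, less than the 3.10 of Ptprc and the 3.38 of Lcp1. Vav1 (chromosome 17, 57279100 to 57329236) stood at 5.83, 9.28, 6.24 and 8.73 in the same order. Its difference between the MSC arrays was 2.49, or 5.63-fold, next to that of Lcp2. Lcp1 (chromosome 14, 75131105 to 75230842) stood at 7.90, 11.23, 7.10 and 10.48. It was the only one of the 9 with levels above the floor in all arrays, and it differed by 3.38, or 10.4-fold, between the MSC arrays.

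The 9 genes separated when MSC with bFGF were set against osteoblasts. Of these genes 5, Ptprc, Lcp2, Vav1, Btk and Lcp1, lay between -0.75 and -0.37, inside the receptor range of -0.87 to 0.73 for this pair. A group of 3 was 2-fold or more lower, Plcg2 at -1.87, Syk at -1.70 and Fgr at -1.08, and Stap1 was 2-fold or more higher, at 1.21. Stap1 was 1 of 49 genes, 0.496% of the 9880 above the floor in MSC with bFGF, that lay at least 2-fold above each of the other 3 arrays there. Over all 10798 genes above the floor 9.71% were lower and 7.5% higher, and the median difference of the 9 genes was -0.68 against -0.07 for all genes. Fgr, whose level with bFGF was under the floor, differed by -0.71 with a loess curve removed and by -0.99 with quantile normalization repeated, both less than 2-fold. The receptor range with a loess curve removed was 0.61 to 2.47 in this pair, with both ends positive. The 9 genes are therefore not placed against it. Stap1 then differed by 1.09, and Ptprc, Lcp2, Vav1, Btk and Lcp1 lay between -0.83 and -0.49.

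On the linear scale, the excess of MSC with bFGF over MSC without was also set against the excess of osteoblasts over the same MSC array. It came to 75.5% for Ptprc, 71.3% for Lcp2, 64.3% for Vav1, 57.0% for Lcp1 and 52.8% for Btk. For Plcg2, Syk and Fgr it was 17.6%, 14.9% and 14.6%, and for Stap1 257%. Background raises the low levels, so these shares describe the arrays and not numbers of transcripts. Shares for 12 macrophage markers ran from -29.7% for Mertk to 126% for Cd14 with a median of 31.7%, beside a median of 57.0% for the 9 genes. Ptprc, Lcp2 and Vav1 exceeded 11 of the 12 markers, all but Cd14, and Plcg2, Syk and Fgr exceeded 4.

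**Figure D2:**
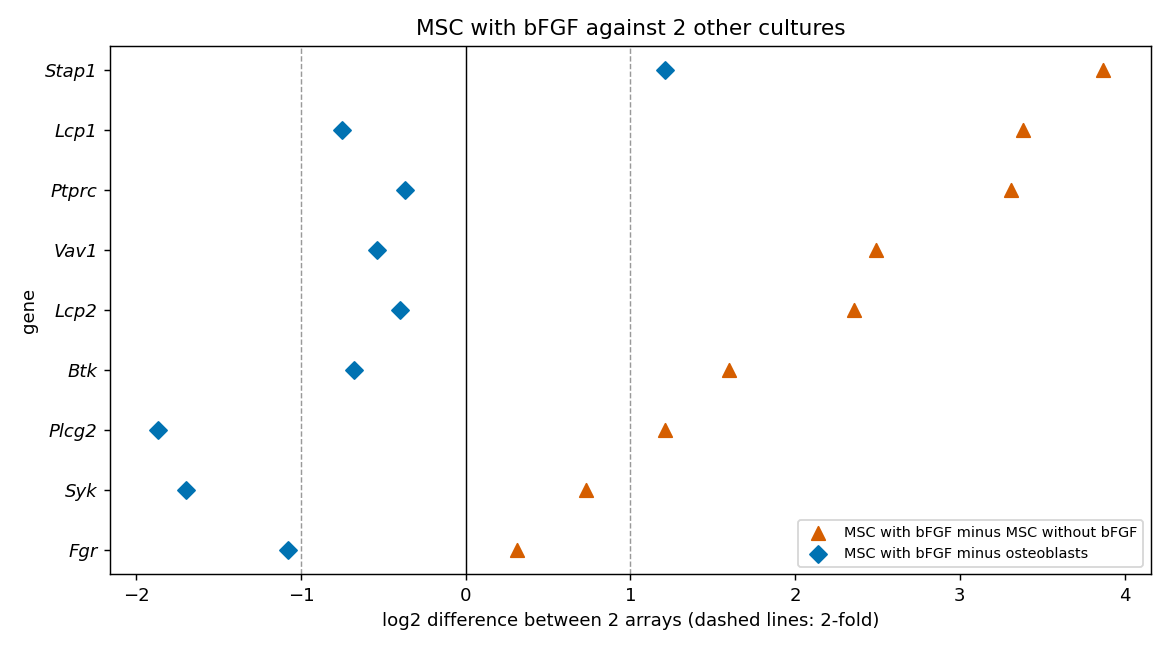
Log2 difference (horizontal axis) of each gene in MSC with bFGF against MSC without bFGF (triangles) and against osteoblasts (diamonds), each from 1 pair of arrays. Stap1 lies above 2-fold in both, at 3.87 and 1.21, and Plcg2, Syk and Fgr have the lowest values in both.

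Without bFGF, MSC were lower than osteoblasts in all 9 genes at 2-fold, from -1.39 for Fgr to -4.13 for Lcp1, with a median of -2.77. Over all 10973 genes above the floor 13.3% were lower and 8.17% higher. Every one of the 9 differences lay below the receptor range of -0.76 to 1.01. Lcp1 was 17.5-fold lower and Ptprc 12.9-fold lower, and the lower level of Ptprc was under the floor. With levels under the floor set to the floor, 6 of the 9 genes were past 2-fold. Stap1, Btk and Fgr then differed by -0.82, -0.87 and -0.39. Osteoblasts, in turn, were higher than ES cells in all 9 genes, by 1.47 for Fgr to 3.75 for Ptprc with a median of 2.86, where 12.3% of 10927 genes were higher and 8.83% lower. Vav1 was higher by 3.44, Lcp1 by 3.33 and Lcp2 by 2.94 in that pair, and Syk and Plcg2 by 2.02 and 2.03. Here too 6 of the 9 genes were past 2-fold with levels under the floor set to the floor. Stap1, Btk and Fgr were then higher by 0.66, 0.70 and 0.23.

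Against ES cells, MSC with bFGF were 2-fold or more higher in 6 genes and lower in 0, where 11.3% of 10932 genes were higher and 10.6% lower. The median over all genes above the floor was itself 0.12 in this pair. The 6 genes were Stap1 (4.08), Ptprc (3.38), Vav1 (2.90), Lcp1 (2.58), Lcp2 (2.53) and Btk (1.69). Plcg2, Syk and Fgr lay between 0.16 and 0.39, inside the receptor range of -0.73 to 0.82. With a loess curve removed Fgr differed by 1.95, Syk by 0.69 and Plcg2 by 0.14 in this pair, and Fgr was under the floor in both arrays. The receptor range itself was then 1.29 to 3.22, with both ends positive, so the genes are not placed against it. The 6 counted genes, Lcp1 (2.38), Lcp2 (2.42), Vav1 (2.79), Btk (2.88), Ptprc (3.23) and Stap1 (4.37), stayed 2-fold or more higher. With levels under the floor set to the floor instead, 5 genes were past 2-fold in this pair, and Btk differed by 0.02. MSC without bFGF had a median of 0.08 against ES cells, and 7 of the 9 genes lay inside the receptor range of -0.70 to 1.10. The others were lower, Plcg2 by -1.05 and Lcp1 by -0.80, and Plcg2 was the 1 gene counted as lower at 2-fold, where 11.8% of 10977 genes were lower and 10.4% higher. With a loess curve removed the difference of Plcg2 was -0.92, that of Stap1 1.55, that of Btk 1.25 and that of Fgr 0.87. The receptor range was then 0.43 to 2.42, again with both ends positive. The levels of Stap1, Btk and Fgr in this pair were all under the floor.

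Related genes of the same families gave a comparison in the same arrays. Of 25 such genes 21 were measured, and 2 were 2-fold or more higher in MSC with bFGF than without and 0 lower, with a median of 0.13. The broadly expressed exchange factor Vav2 differed by 0.10 and stood between 6.50 and 7.34 in the 4 arrays. Plcg1, the phospholipase of most tissues, differed by 0.16 and stood between 7.88 and 8.42. The receptor phosphatase Ptpra differed by 0.15 and the fibroblast plastin Pls3 by -0.02, with levels of 8.80 and 8.78 in MSC without and with bFGF.

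Among Src family kinases, Src, Yes1 and Fyn differed by -0.05, -0.31 and 0.43 between the MSC arrays and lay above the floor in each of the 4 arrays, unlike Fgr. The counted relatives were Vav3, at 6.00 in ES cells, 7.61 in osteoblasts, 4.78 in MSC without bFGF and 6.72 in MSC with bFGF, and the kinase Tec, at 6.82, 8.04, 5.38 and 6.41. Both were under the floor in MSC without bFGF and highest in osteoblasts. In MSC with bFGF the level of Tec was close to the floor of 6.32. The adaptor Blnk, a scaffold like Lcp2 in B cells and macrophages, was 1.01 higher, but its level of 6.27 with bFGF was under the floor. Stap2 was 0.51 higher, and Zap70, the relative of Syk in T cells, stood at 5.60 and 5.00 in MSC without and with bFGF, both under the floor. Pls1, the plastin of epithelia, differed by -1.10 with both levels under the floor.

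**Figure D3:**
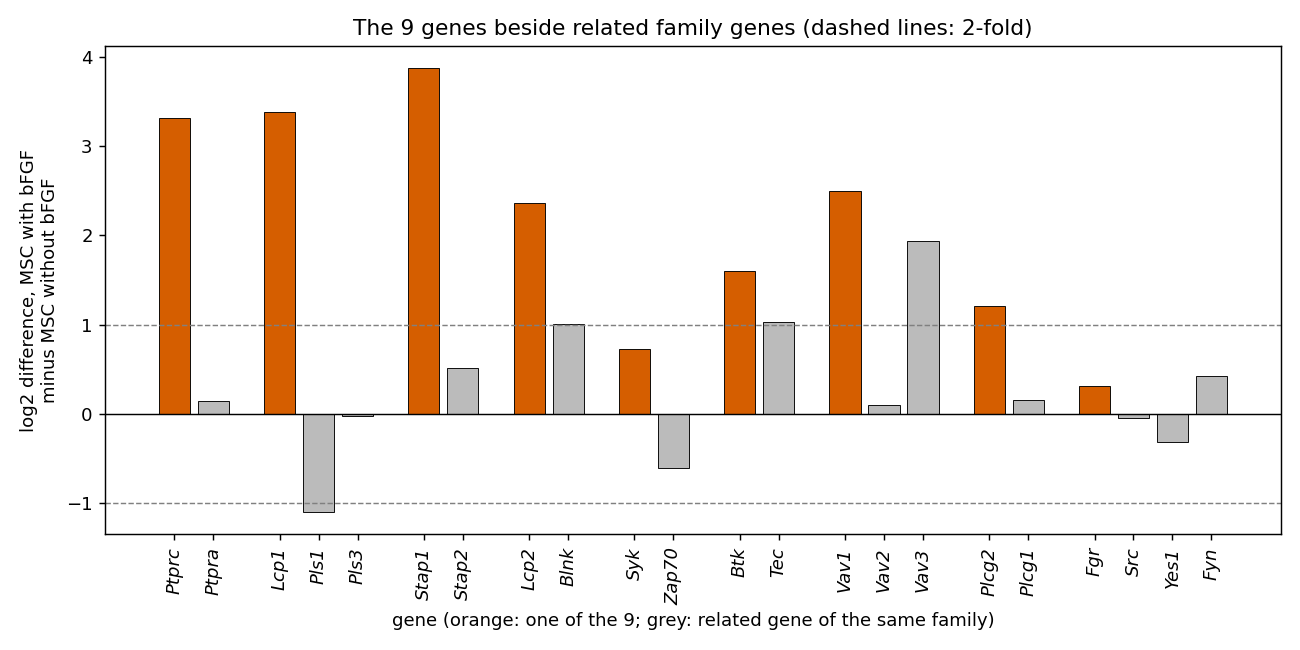
Log2 difference between MSC with and without bFGF (vertical axis) for each of the 9 genes (orange bars) and for related genes of its family (grey bars), from 1 pair of arrays. Ptpra, Pls3, Vav2, Plcg1 and Src lie within 0.16 of 0, while Vav3 reaches 1.94.

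Other genes of ITAM signalling were taken from lists put together from general knowledge, but with earlier results of these arrays known. Of 9 receptor chains 2 lay above the floor in the MSC comparison, and both were higher: Fcer1g, the chain shared by Fc receptors, stood at 8.08 in ES cells, 12.11 in osteoblasts, 8.38 in MSC without bFGF and 11.16 in MSC with bFGF, and Tyrobp (DAP12) stood at 7.42, 10.86, 7.06 and 9.63. Both chains signal through Syk in myeloid cells. The antigen receptor chains of lymphocytes lay under the floor in all arrays, among them Cd3e between 5.78 and 6.12 and Cd79a between 4.00 and 4.71.

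Of 18 other adaptors 6 were counted as higher with bFGF and 0 as lower, with a median of 0.43. Nckap1l, a subunit of the leukocyte WAVE complex, was higher by 2.89, the adaptor Fyb by 2.66, Lat2, a transmembrane adaptor of myeloid and B cells, by 2.13 and Pik3ap1 by 2.09. Lat and Grap2, adaptors of T cells, differed by 0.22 and -0.16 under the floor. Of 17 measured enzymes and effectors 8 were higher and 0 lower, with a median of 0.98. The GTPase Rac2, a target of Vav1, was higher by 2.43, the exchange factor Dock2 by 1.92, the kinase Pik3cg by 1.81 and the paracaspase Malt1 by 1.64.

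Inhibitors of the pathway were higher as well, in 6 of 13 genes with 0 lower and a median of 0.87. The paired receptor Pilra was higher by 3.40, the lipid phosphatase Inpp5d (SHIP1) by 2.23, the collagen receptor Lair1 by 2.12 and the phosphatase Ptpn6 (SHP-1) by 2.08. Csk, the kinase that restrains Src family kinases in most cells, differed by 0.68. Of 15 leukocyte actin regulators 9 were higher and 0 lower, with a median of 1.79. The largest were Coro1a (3.22) and Hcls1 (3.20), then Nckap1l and the myosin Myo1f (2.59). Wipf1 and Lsp1, both above the floor in each MSC array, differed by 0.03 and 0.74. All of these counts stand beside the 4.09% of genes higher and 0.467% lower in this pair, and some genes are in more than 1 list.

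Marker lists of blood and stromal cells were read in the same arrays. Of the 12 macrophage markers 10 were counted as higher with bFGF and 0 as lower. The number above the floor was 10 in ES cells, 12 in osteoblasts, 8 in MSC without bFGF and 11 in MSC with bFGF, and their summed linear level was 4406, 31196, 1532 and 9832. Csf1r, the receptor for the macrophage growth factor, stood at 7.30, 11.27, 7.31 and 10.56, the adhesion receptor Adgre1 at 9.05, 11.16, 5.69 and 7.71, and the lysosomal Cd68 at 8.63, 11.71, 7.92 and 10.66. Adgre1 was thus higher in ES cells than in either MSC array, an order not seen for Ptprc. Mrc1 stood at 6.76, 10.40, 4.63 and 4.92, and with Mertk, which differed by -0.73, it was not higher at 2-fold with bFGF. Against osteoblasts 9 of 12 were lower in MSC with bFGF, where 9.71% of all genes above the floor were lower. The median of the markers was -1.46, beside -0.68 for the 9 genes. In MSC without bFGF against ES cells 4 of 12 were lower, where 11.8% of all genes above the floor were lower. There the median was -0.54, beside 0.08 for the 9 genes. The part of these markers in the results above was not tested.

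The neutrophil list had 0 of 10 genes above the floor in any array, with summed levels of 302, 344, 267 and 259 in the order ES cells, osteoblasts, MSC without and MSC with bFGF, S100a8, S100a9 and Ly6g among them. Of 10 T cell genes 0, 0, 0 and 1 lay above the floor, with summed levels of 416, 426, 455 and 583, and the 1 gene was Cd5, named after its values were seen, at 7.87 in MSC with bFGF. The B cell list had 0, 2, 1 and 0 of 8 genes above the floor, with sums of 356, 548, 361 and 339, and Cd79a, Cd79b and Ms4a1 under the floor throughout. NK cell genes had 1, 0, 0 and 0 of 7 above the floor, with sums of 719, 178, 172 and 147. Mast cell genes had 2, 1, 0 and 0 of 8, with sums of 1093, 415, 231 and 208. Lymphocyte, NK cell and mast cell markers were thus mostly under the floor where the 9 genes were high.

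Of 8 dendritic cell genes 2, 0, 1 and 1 lay above the floor, with sums of 414, 425, 413 and 550, and Itgax stood at 7.82 in MSC with bFGF against 5.09 without, while Flt3 and Xcr1 stayed under the floor. Of 7 osteoclast genes 2, 1, 0 and 1 did, with sums of 603, 916, 275 and 348, and Acp5, Ctsk and Calcr lay under the floor in both MSC arrays. Ctsk stood at 9.33 in osteoblasts, and the gene above the floor in MSC with bFGF was Dcstamp, at 7.01, named after its values were seen. Megakaryocyte genes had 3, 2, 2 and 2 of 5 above the floor, with sums of 896, 604, 334 and 283, and erythroid genes 1, 0, 1 and 0 of 4, with sums of 223, 174, 208 and 167. Endothelial genes had 1, 1, 0 and 0 of 6, with sums of 315, 327, 243 and 226. Of 10 marrow stroma genes 7, 9, 6 and 6 lay above the floor, with sums of 6001, 18526, 6508 and 4790, and 2 were 2-fold or more lower with bFGF. Col1a1 stood at 10.92, 12.60, 9.23 and 9.06. Of 5 osteoblast genes 0 lay above the floor in the osteoblast array and 1 each in ES cells and MSC without bFGF, with sums of 351, 184, 205 and 181, so the label was not matched by Sp7 or Ibsp, at 5.36 and 4.53 there. Bglap and Spp1 of the same list were not measured, so the list does not settle the identity of that culture. ES cell genes were 5 of 7 above the floor in the ES array, with Pou5f1 at 10.63, and 0, 0 and 1 in the others, with sums of 6415, 283, 247 and 255.

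**Figure D4:**
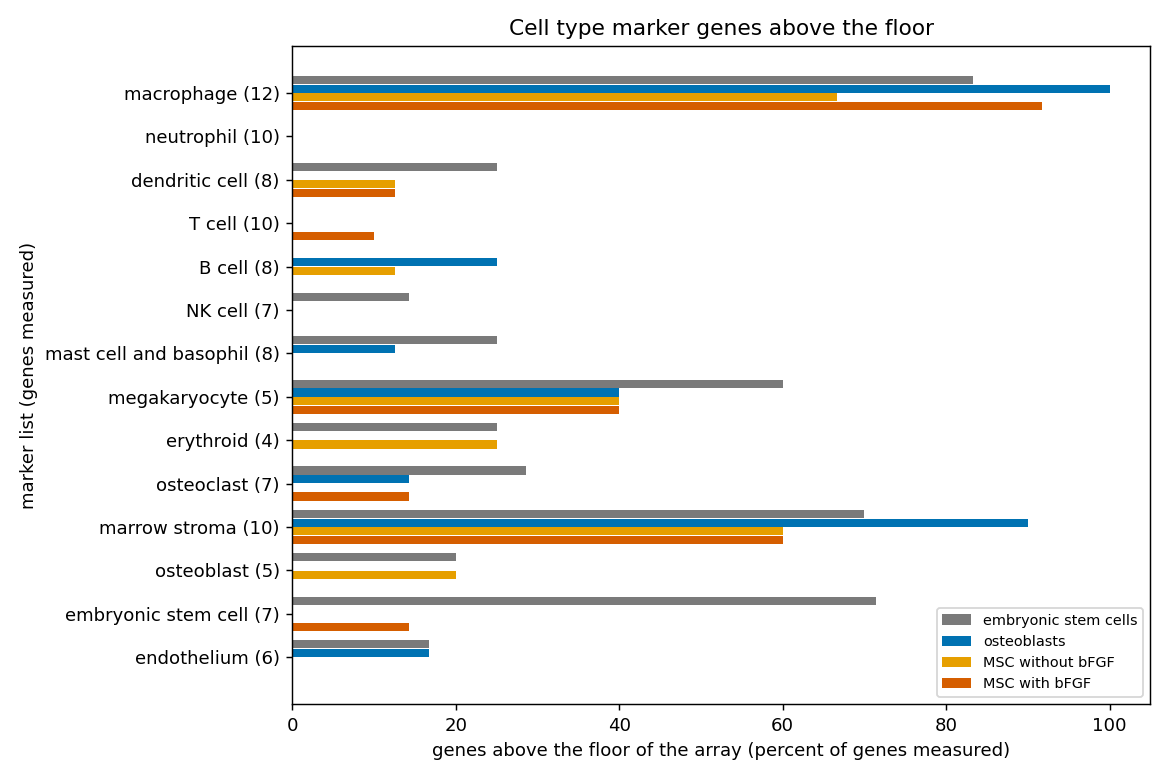
Share of the measured genes of each marker list above the floor of the array (horizontal axis, percent), with 1 bar per array and the number of measured genes in parentheses. Macrophage and marrow stroma genes have the longest bars in osteoblasts, 12 of 12 and 9 of 10 genes, and neutrophil genes have none in any array.

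The genes whose 4 levels ran most like those of the 9 were found by Euclidean distance, after each gene's own mean was taken off and predicted genes and numbered clones were left out. Closest to the median of the 9 genes were Trpv2 and Lat2, at distances of 0.19 and 0.21, followed by Lpxn, Tmem106a, Lair1, Tm6sf1, Cyth4, Arhgap25, Sla and Slc2a6, up to 0.34. Trpv2, a cation channel, stood at 6.37 in ES cells, 9.19 in osteoblasts, 6.24 in MSC without bFGF and 8.55 in MSC with bFGF. Among the 10 highest by Pearson correlation, 3 genes were shared, Lpxn, Lat2 and Trpv2. With 4 arrays many genes can share such an order, and the likeness is a description.

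The pattern closest to Ptprc was that of Csf1r, at a distance of 0.26, then Fcer1g, the platelet and leukocyte protein gene Plek, Hpgds and Coro1a, up to 0.48. Stap1 had no gene as close: Il7r, the interleukin 7 receptor chain, lay at 0.46, Lilrb4a at 0.59, the cholesterol hydroxylase Ch25h at 0.64, Cd14 at 0.66 and Trem1 at 0.78. Il7r stood at 4.92 in ES cells, 7.34 in osteoblasts, 4.64 in MSC without bFGF and 8.38 in MSC with bFGF. Like Stap1 it was higher in MSC with bFGF than in osteoblasts, by 1.04. Lilrb4a belongs to a family of close relatives and its value could be shared with another member.

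Promoter sequences are shown for members that kept near the osteoblast level in MSC with bFGF, Vav1 and Lcp2, and for members that did not, Plcg2 and Fgr. RefSeq gave promoter windows in GRCm38.p6 for 8 of the 9 genes, not for Stap1, and these 4 are the windows that lie wholly outside the annotated span of their gene. Each line gives the 250 bases before the annotated start, 5' to 3' on the strand of the gene. Capitals mark GAGGAA or its reverse complement TTCCTC, the core of sites bound by the myeloid and B cell factor PU.1.
Vav1 (chr17:57278850-57279099, plus strand): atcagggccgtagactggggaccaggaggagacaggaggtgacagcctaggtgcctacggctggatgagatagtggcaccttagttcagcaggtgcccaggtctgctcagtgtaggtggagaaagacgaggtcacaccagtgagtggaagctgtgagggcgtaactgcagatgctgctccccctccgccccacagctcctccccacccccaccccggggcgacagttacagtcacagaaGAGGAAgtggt
Lcp2 (chr11:34046678-34046927, plus strand): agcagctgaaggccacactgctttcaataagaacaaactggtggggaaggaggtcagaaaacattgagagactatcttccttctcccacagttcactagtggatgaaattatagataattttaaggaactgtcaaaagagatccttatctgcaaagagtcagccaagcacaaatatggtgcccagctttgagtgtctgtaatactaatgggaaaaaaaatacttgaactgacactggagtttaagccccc
Plcg2 (chr8:117498025-117498274, plus strand): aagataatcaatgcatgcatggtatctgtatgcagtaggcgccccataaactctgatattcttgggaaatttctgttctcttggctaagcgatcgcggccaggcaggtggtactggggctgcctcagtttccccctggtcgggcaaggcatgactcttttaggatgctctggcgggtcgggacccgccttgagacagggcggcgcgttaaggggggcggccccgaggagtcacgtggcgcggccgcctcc
Fgr (chr4:132973845-132974094, plus strand): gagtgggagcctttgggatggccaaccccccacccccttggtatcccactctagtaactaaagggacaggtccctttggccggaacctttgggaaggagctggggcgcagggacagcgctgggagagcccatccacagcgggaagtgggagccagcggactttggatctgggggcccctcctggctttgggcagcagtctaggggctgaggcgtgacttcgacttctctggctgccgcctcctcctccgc
In the Vav1 window the match begins 11 bases before the start, and the windows of Lcp2, Plcg2 and Fgr hold none.

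Over the outermost window of each gene, 2 of the 8 genes held GAGGAA on either strand, Vav1 and Ptprc, and 23.1% of 27025 windows of the same length did. The AP-1 motif TGANTCA was in 0 of 8 and in 6.85% of all windows, CCGGAAG, a core of other ETS factors, in 0 and in 7.07%, and TATAAA in 1, that of Ptprc, and in 13.0%, each searched on both strands. GAGGAA and CCGGAAG share the letters GGAA. The shares in the 8 genes are not set apart from those of all windows. GC content of the 4 windows printed was 60.8% for Vav1, 41.2% for Lcp2, 59.6% for Plcg2 and 64.4% for Fgr, so the 2 groups are not separated by it. A match is a description of these letters and not of binding.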

How the data were processed

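Levels came from the deposited value table, which holds log2 values that the authors made with Affymetrix Expression Console and RMA, per the submitters' processing notes; the log2 scale was inferred from the values, from 1.40 to 14.28. RMA makes the distributions of arrays alike, so a general change of RNA per cell would not show. Versions and the genome build were not given in the sources used here. Of 35556 probe sets 21789 had a single symbol in the platform annotation, 1621 several and 12146 none. An Entrez match to RefSeq (GRCm38.p6) was found for 19856 of 19938 genes and changed 0 symbols. Each gene took its highest-mean probe set. Differences are between single arrays.

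All 9 members and the lists were chosen with earlier results of these data known. Genes named are the members, close relatives, up to 4 genes each way per pathway list with the largest differences past 2-fold, the first 3 genes of marker lists, and nearest patterns; others are named as examples of values under 2-fold, chosen after their values were seen. Counting was tested on simulated data. Alternatives were probe set averaging, centring, loess, repeated quantile normalization, other floors and other fold thresholds; levels set to the floor, and the receptor range with loess removed, were chosen after seeing the data. The software was Python 3.11.15 with pandas 2.3.3, numpy 2.4.6 and statsmodels 0.14.6.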

Additional observations from a re-analysis of the deposited data

How the results depend on the processing

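No paired analysis was possible because each group has 1 array, and for the same reason no array could be left out. The settings tried were averaging of probe sets, centring, loess, repeated quantile normalization, no floor, a floor at the 75th percentile, and thresholds of 1.5-fold and 4-fold. The count of 7 of 9 genes higher with bFGF than without stayed between 5 and 8. Against osteoblasts the 4 genes past 2-fold in MSC with bFGF became 0 at 4-fold. For MSC without bFGF against ES cells the 1 gene became 0 with loess, with the higher floor, with levels under the floor set to the floor and at 4-fold, and 2 at 1.5-fold. Of 36 levels 20 lay above the floor and 11 above the 75th percentile. Without Stap1 the median of the 9 genes was 1.98 against MSC without bFGF and 2.11 against ES cells. Of 54 differences of single genes between arrays 12 moved by more than the spread between probe sets of a gene when a loess curve was removed. Setting levels under the floor to the floor, chosen after seeing the data, moved more of these differences than loess did. In the bFGF pair it moved those of all members but Lcp1, Lcp2 and Vav1. With quantile normalization repeated 0 moved. Averaging of probe sets could move none, because each of the 9 genes had 1 probe set. Centring shifted a pair by at most 0.12, less than the smallest such spread of 0.19, so it could move none either. Over all genes the bFGF pair gave 478 genes past 2-fold, 189 with the higher floor, 1131 at 1.5-fold and 161 at 4-fold. The cause of these changes was not tested, other than that stricter settings count fewer genes by construction. Genes near the floor, among them Fgr, Syk and Btk in MSC with bFGF, are limited by signal over background.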

Other observations

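Genes with their highest level in MSC with bFGF, at least 2-fold above each of the other 3 arrays, were few: 49 of the 9880 genes above the floor in that array, or 0.496%. Among the 190 measured genes of the lists used here, whether above the floor or not, there were 5, chosen after their values were seen. Besides Stap1 they were the integrin chain Itgax, 2.42 above the next array, the cell fusion protein gene Dcstamp of osteoclasts and dendritic cells, 2.18 above, the lymphocyte surface receptor Cd5, 1.63 above, and Pilra, 1.21 above. Dcstamp stood at 7.01 in MSC with bFGF and between 4.60 and 4.83 in the other arrays, Itgax at 7.82 against 4.64 to 5.40, and Cd5 at 7.87 against 5.86 to 6.23. For Pilra and Stap1 the next array was that of osteoblasts, at 7.76 and 7.12, both above the floor. For Itgax it was also that of osteoblasts, at 5.40, under the floor.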
